A study of Arabidopsis thaliana with 4 samples.

Results

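Contact among 8 of the 10 chromosome ends of Arabidopsis thaliana, each up to 500 kb, was examined in Hi-C maps of endosperm and leaf. Both tissues were F1 material of ecotype Columbia-0 from the cross Col_wt x Col_wt, untreated. Endosperm, the nutritive tissue of the seed, has no age in the labels, and the leaves were 4 weeks old. The study compared how chromatin is arranged in the 2 tissues. Each tissue had 2 biological replicates, which the authors pooled in 1 matrix, so every value below is a single measurement per tissue and no test over replicates could be made. The spread between replicates is unknown here, and the 95% intervals cover counting error only. Contact maps hold no expression, so the tissue labels were not checked against marker genes.

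The 8 ends were both ends of chromosomes 1, 3 and 5 and the south ends of chromosomes 2 and 4. They were taken by position as 5 bins of 100 kb each, 40 of the 1193 bins of the map. Bins were laid from the north end of each chromosome, so the last bin of a south end can be shorter. Sizes and distances in kb or Mb count every bin as 100 kb. The north ends of chromosomes 2 and 4, which carry the nucleolus organizers, were left out. An end is named by its chromosome and side, so that 2S is the south end of chromosome 2 and 3N the north end of chromosome 3. In TAIR10 coordinates the north ends cover bases 1 to 500000. The south ends run from base 30000001 of chromosome 1, 19200001 of chromosome 2, 23000001 of chromosome 3, 18100001 of chromosome 4 and 26500001 of chromosome 5 to the end of the chromosome. Signal was present in 39 of the 40 bins. The outermost bin of 1S had none in either tissue, so this end was measured over 4 bins, from its second bin inward. The 8 ends form 28 pairs, of which 24 join different chromosomes, 3 join the ends of one chromosome, and 1, the pair 1S with 2S, is given apart because the leaf map joins the stretches they end.

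Telomeres cap linear chromosomes with short tandem repeats and protect them from being read as breaks. In interphase nuclei of Arabidopsis they are known to gather around the nucleolus, at which the ribosomal RNA gene arrays also lie. Hi-C crosslinks chromatin, cuts it and ligates fragments that lie close together, so ends that share a place in many nuclei are joined more often. In a map of pooled nuclei, fewer nuclei with ends together and less frequent contact in each nucleus cannot be told apart. Copies of a chromosome cannot be told apart either.

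The maps held 25033672 contacts in endosperm and 18557893 in leaf, with a median of 21 and 16 contacts per pair of bins on different chromosomes. Values are balanced contact divided by that tissue's mean over all pairs of bins on different chromosomes, so that 1 is the interchromosomal mean. Bins were laid along the chromosomes in order, and contact across the 4 boundaries of this layout was 1.31 to 3.29 in endosperm and 1.46 to 6.43 in leaf, against medians of 22.1 and 14.3 for neighbouring bins inside chromosomes. In the leaf map chromosome 1 beyond 22.7 Mb had high contact with chromosome 2 beyond 1.5 Mb. Contact between these 2 stretches, over 20 bins on each side, was 1.01 in endosperm and 2.50 in leaf. Contact across the break within chromosome 1 was 2.93 in endosperm and 1.07 in leaf.

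The ends are gene-rich. They held 28.6 to 34.0 protein-coding genes per bin with signal, against a median of 26 over all bins used, and their raw counts gave no bin outside 0.5 to 1.5 times the tissue's median. From the gene table, the outermost protein-coding genes are NAC001 (AT1G01010, a NAC-domain transcription factor) at 1N and AT1G80990 at 1S, AT2G48160 at 2S, AT3G01015 and AT3G63540 on chromosome 3, AT4G40100 on chromosome 4, and AT5G01010 and AT5G67640 on chromosome 5. No expression was measured.

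Ends of different chromosomes contacted each other well above the interchromosomal mean in endosperm and in leaf, with the lower excess in endosperm. Over the 24 pairs the mean contact was 1.65 (95% counting interval 1.63 to 1.67) in endosperm and 1.96 (1.93 to 1.99) in leaf, from 22340 and 19318 contacts. The log2 difference of endosperm over leaf was -0.25 (-0.27 to -0.22). All 24 pairs lay above 1 in each tissue, where 45.9% of all blocks of 5 by 5 bins between chromosomes did so in endosperm and 44.2% in leaf. The pairs ran between 1.52 and 1.82 in endosperm, with a median of 1.62, and between 1.73 and 2.22 in leaf, with a median of 1.91. As few as 0.175% of all blocks reached the lowest end pair in endosperm, and 0.368% did so in leaf, the ends themselves included.

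Contact was lower in endosperm in 23 of 24 pairs, where 48.4% of all 21742 blocks were lower. In 17 pairs the counting interval of the difference lay below 0, in 7 it held 0, and in 0 it lay above 0. The share of all blocks with such intervals was not taken, so these interval counts do not set the ends apart from other blocks. At least 1.2-fold lower were 11 of 24 pairs, against 3.45% of all blocks, and 0 pairs were that much higher, against 5%. The median log2 difference was -0.25 over the pairs and 0.01 over all blocks. Single bins gave the same picture less sharply: 92.0% of the 575 pairs of bins in these ends lay above the interchromosomal mean in endosperm and 97.6% in leaf, against 46.7% and 47.2% of all pairs of bins between chromosomes.

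**Figure D1:**
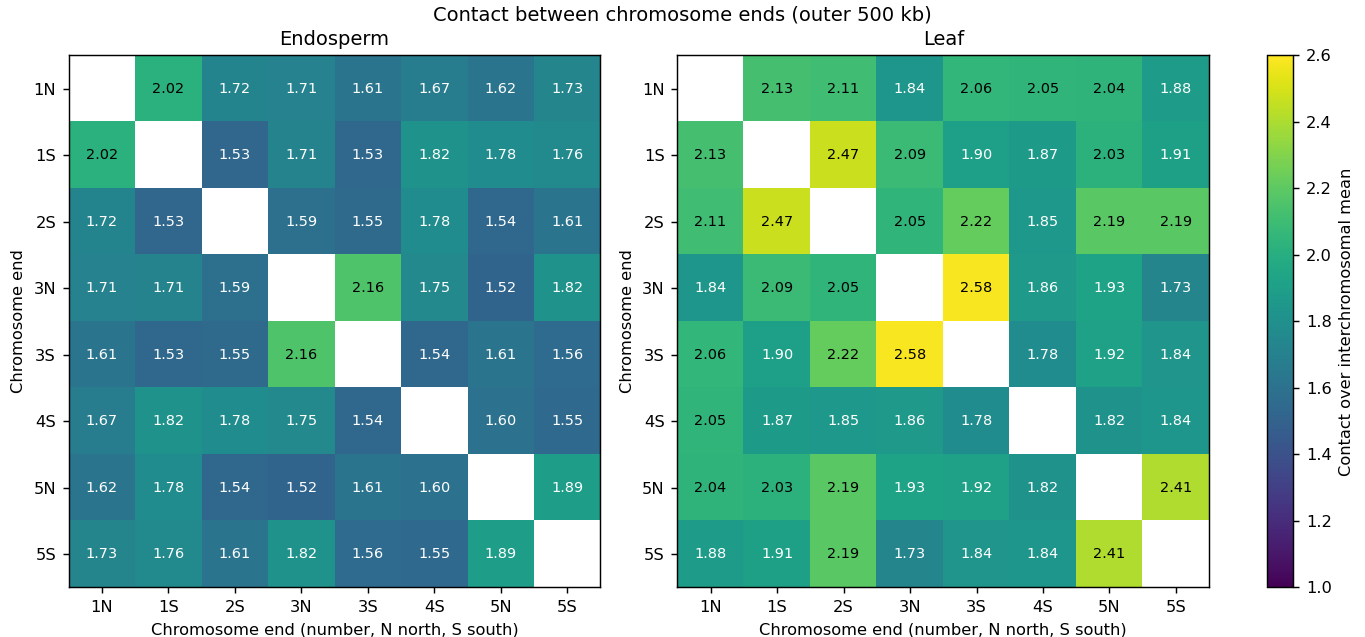
Contact of each pair of the 8 chromosome ends in endosperm (left) and leaf (right), as balanced contact over the interchromosomal mean; rows and columns are ends named by chromosome and side. The squares of one chromosome (1N with 1S, 3N with 3S, 5N with 5S) were the 3 highest in endosperm, and 1S with 2S, at 1.53 in endosperm, was among the 3 highest in leaf at 2.47.

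The order of the pairs was not carried over between tissues. Across the 24 pairs the levels correlated with Pearson's r = -0.24 and Spearman's rho = -0.16. This is a description, since pairs share ends and each tissue is 1 map. The 3 highest pairs in endosperm were 3N with 5S (1.82, against 1.73 in leaf), 1S and 4S (1.82, against 1.87) and 2S and 4S (1.78, against 1.85). These were also the 3 smallest differences, with log2 values of 0.08 (-0.06 to 0.21), -0.04 (-0.18 to 0.11) and -0.06 (-0.19 to 0.08). All 3 intervals hold 0. The pair of chromosomes 3 and 5 ranked first of 24 in endosperm and last in leaf, and it is the pair that was higher in endosperm.

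The 3 largest differences all involved 2S. With 3S its contact was 1.55 in endosperm, from 887 contacts, and 2.22 in leaf, from 885 contacts, a log2 difference of -0.52 (-0.65 to -0.38). With 5N it was 1.54 in endosperm and 2.19 in leaf (-0.51, -0.64 to -0.37), and with 5S it was 1.61 in endosperm and 2.19 in leaf (-0.44, -0.57 to -0.31). The other pairs among the 3 lowest in endosperm had smaller differences. 3N and 5N stood at 1.52 in endosperm and 1.93 in leaf (-0.35, -0.48 to -0.21), and 1S and 3S at 1.53 in endosperm and 1.90 in leaf (-0.31, -0.46 to -0.15). In endosperm the intervals of the 3 lowest pairs (up to 1.65) and of the 3 highest (from 1.67) did not overlap. These pairs were picked by the same values, so the gap is no test of a difference between pairs.

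**Figure D2:**
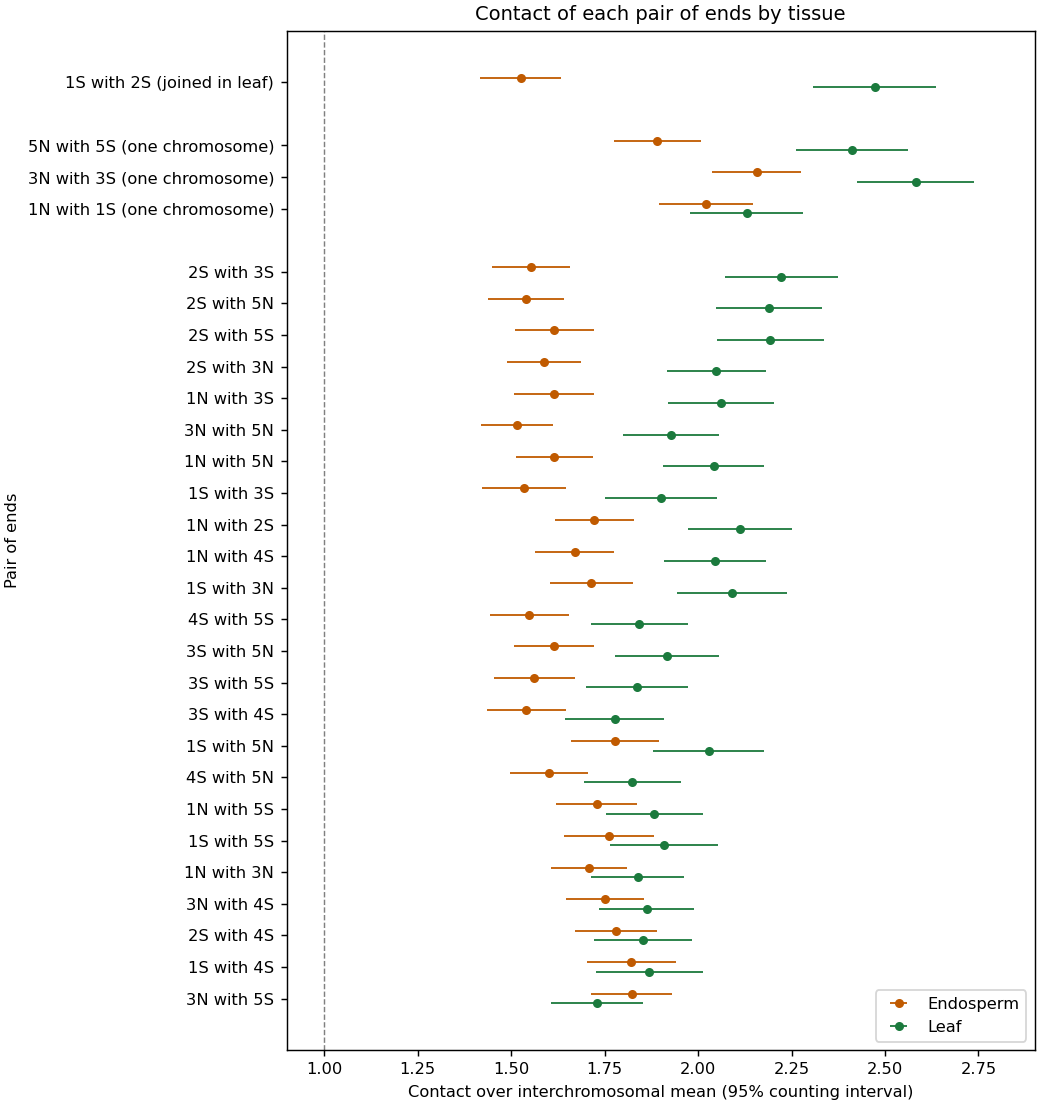
Contact over the interchromosomal mean for each of the 28 pairs in endosperm (orange) and leaf (green), with 95% counting intervals as bars; pairs on different chromosomes are sorted by the log2 difference, and the dashed line marks the mean. Endosperm lies left of leaf in every pair except 3N with 5S, at 1.82 and 1.73.

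The difference was seen at every one of the 8 ends. Averaged over its partners on other chromosomes, contact of an end was 1.57 to 1.72 in endosperm and 1.87 to 2.10 in leaf, and was lower in endosperm for 8 of 8 ends with intervals below 0. Each pair enters the averages of 2 ends, so the 8 averages are not separate observations. How often such intervals lie below 0 elsewhere in the map was not measured. In endosperm the order was 1S (1.72), 3N (1.68), 1N (1.68), 5S (1.67), 4S (1.67), 2S (1.63), 5N (1.61) and 3S (1.57). Neighbours in this order have overlapping intervals. In leaf 2S came first at 2.10 (2.05 to 2.16), followed by 1N (2.00) and 5N (1.99), and 4S came last at 1.87 (1.82 to 1.92).

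The ends at the extremes in leaf also had the largest and the smallest differences. For 2S the log2 difference was -0.36 (-0.42 to -0.31), and for 4S it was -0.16 (-0.21 to -0.11). Pairs with 2S stood at 1.63 in endosperm and 2.10 in leaf, and the remaining pairs at 1.66 in endosperm and 1.91 in leaf. The difference between these log2 differences was -0.16 (-0.23 to -0.10). Pairs with 4S stood at 1.67 in endosperm and 1.87 in leaf, and the remaining pairs at 1.64 in endosperm and 2.00 in leaf, a difference of 0.12 (0.06 to 0.18). Both ends were singled out after their values were seen. 2S lies on a stretch that the leaf map joins to chromosome 1, and the part of the junction in its leaf level was not tested. Without chromosomes 1 and 2 the mean contact was 1.62 in endosperm and 1.84 in leaf (log2 -0.18, -0.23 to -0.13), with 7 of 8 pairs lower in endosperm.

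Expressed as a share, the other ends took up 4.60% to 5.43% of an end's balanced interchromosomal contact in endosperm and 5.11% to 6.37% in leaf, on 2.84% to 3.45% of the bins. 1N gave 5890 of its 116989 interchromosomal contacts to the ends of other chromosomes in endosperm and 5172 of 87549 in leaf. Ends also had a smaller interchromosomal share of their contacts in endosperm, at 65.6% to 73.8%, against 69.5% to 78.4% in leaf. The highest in leaf was 2S, on the stretch that the leaf map joins to chromosome 1. In the whole map 14617359 of 25033672 contacts were interchromosomal in endosperm and 11034545 of 18557893 in leaf, also a smaller share in endosperm. These totals are unbalanced and include contacts within a bin, which the shares of the ends leave out. In leaf they also count contact between the joined stretches of chromosomes 1 and 2 as interchromosomal. The part of the junction in this share and in the leaf interchromosomal mean was not tested. The 24 pairs were also set against an expectation built from the interchromosomal sums of both bins, which takes an end's interchromosomal share into account. They then stood at 1.49 in endosperm and 1.71 in leaf (log2 -0.20, -0.23 to -0.17).

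The surroundings of the ends differed far less than the ends. As local background, each end's contact was taken with bins 6 to 30 from the other end, which lie 0.5 to 3 Mb inward. It averaged 1.18 (1.18 to 1.19) in endosperm and 1.22 (1.22 to 1.23) in leaf, a log2 difference of -0.05 (-0.06 to -0.04). Contact of ends over this background was 1.39 (1.37 to 1.41) in endosperm and 1.60 (1.58 to 1.63) in leaf, a log2 difference of -0.20 (-0.23 to -0.17). All 24 pairs exceeded their background in both tissues. The ratio was lower in endosperm in 20 of 24 pairs, where 52.3% of all blocks were lower over their own inward bins, and at least 1.2-fold lower in 9 of 24, where 2.52% were. Taken as a median over pairs of bins in place of the mean, the log2 difference was -0.15 in contact, with 17 of 24 pairs lower, and -0.10 in the ratio. Without the 2 outermost bins of each end it was -0.17 in contact and -0.11 in the ratio, with ends of 3 bins -0.38 and -0.34, and with ends of 10 bins -0.12 and -0.077. In the 200 kb matrices it was -0.17 in contact and -0.12 in the ratio.

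The 4 pairs with a higher ratio in endosperm were 3N with 5S, and 4S with 1S and 2S and with 3N. Their log2 differences were 0.04 to 0.06, and all 4 intervals held 0. Over all its partners 4S stood 1.43 times over its background in endosperm and 1.505 times in leaf, a log2 difference of -0.07 (-0.13 to -0.02), the smallest of the 8 ends. 2S had the largest at -0.29 (-0.35 to -0.23), with 1.397 in endosperm and 1.71 in leaf.

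Contact dropped steeply with distance from the end in both tissues. A bin's mean contact with the outer 500 kb of an end on another chromosome was, for the outermost bin, 2.14 in endosperm and 2.80 in leaf. For bin 2 it was 1.76 in endosperm and 2.17 in leaf, for bin 3 it was 1.60 in endosperm and 1.82 in leaf, and for bin 5 it was 1.37 and 1.48. It passed below the midpoint between the outermost bin and the mean of bins 26 to 30 at bin 3 in both tissues. Bins 26 to 30 stood at 1.14 in endosperm and 1.15 in leaf. The log2 difference shrank along the same path, at -0.39 (-0.43 to -0.35) for the outermost bin, -0.31 (-0.35 to -0.26) for bin 2 and -0.11 (-0.16 to -0.07) for bin 5. Its interval lay below 0 for 5 of 5 bins in the ends, for 11 of 25 bins from 6 to 30 and for 6 of 20 bins from 31 to 50. The first bin from the end whose interval held 0 was bin 10, which starts 0.9 Mb in. No share of such intervals over the rest of the map was taken, so these counts do not mark how far the difference reaches.

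**Figure D3:**
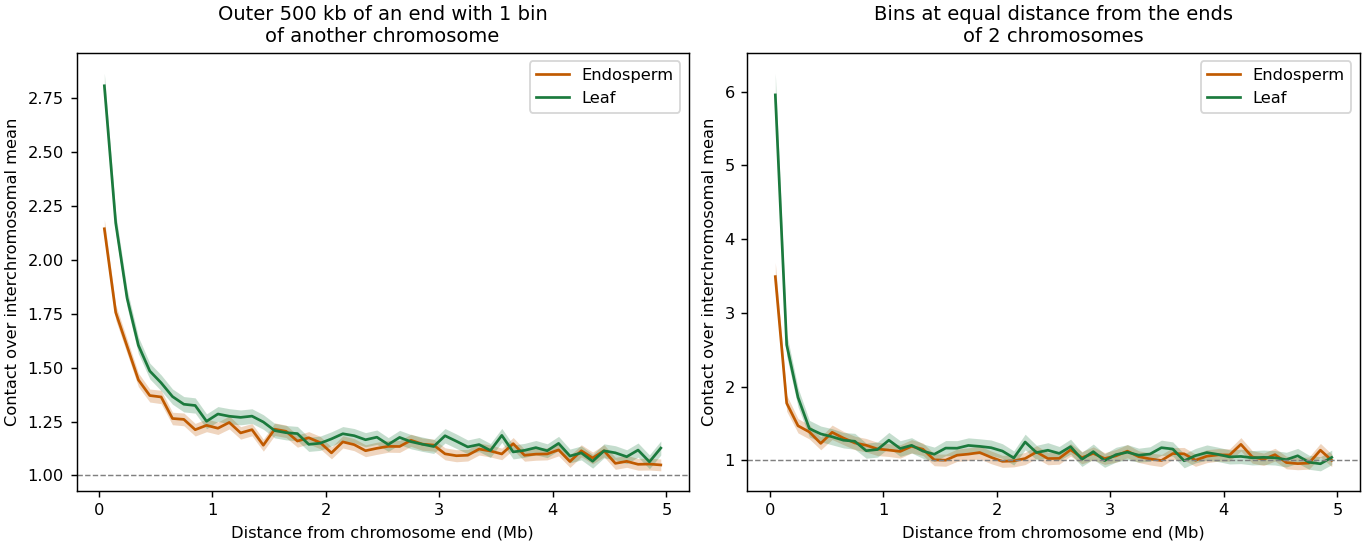
Contact over the interchromosomal mean against distance from the chromosome end in Mb, averaged over the 24 pairs (19 pairs for the outermost bins at right, since that bin of 1S has no signal), in endosperm (orange) and leaf (green) with 95% counting intervals shaded. Left, 1 bin with the outer 500 kb of the other end, where the outermost bin stood at 2.14 in endosperm and 2.80 in leaf; right, bins at equal distance from both ends, where it stood at 3.49 and 5.96.

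The difference was largest where both partners were outermost bins. Outermost bins of different chromosomes contacted each other at 3.49 (3.30 to 3.68) times the interchromosomal mean in endosperm and 5.96 (5.66 to 6.25) times in leaf, a log2 difference of -0.77 (-0.88 to -0.66). These 19 pairs of single bins held 1301 contacts in endosperm and 1608 in leaf, although the endosperm map is the deeper one. How reads from repeats shared by chromosome ends were treated is unknown here, and their part in the values of the outermost bins was not tested. Bins 2 of both ends stood at 1.77 in endosperm and 2.57 in leaf (-0.53, -0.66 to -0.41), and bins 3 at 1.47 and 1.85 (-0.34, -0.47 to -0.20). Bins 4 stood at 1.38 in endosperm and 1.43 in leaf (-0.05, -0.20 to 0.10) and bins 5 at 1.23 and 1.36 (-0.14, -0.30 to 0.01), and both of these intervals held 0. The values did not shrink at every step. The outermost bin of one end with bin 3 of the other gave 1.98 in endosperm and 2.05 in leaf (-0.05, -0.15 to 0.05), and with bin 5 it gave 1.44 in endosperm and 1.53 in leaf (-0.09, -0.21 to 0.02). Bins 2 to 5 of both ends gave 1.47 in endosperm and 1.69 in leaf, a log2 difference of -0.20 (-0.24 to -0.17).

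With regions farther in, the outermost bins differed little between the tissues. Their contact with bins 6 to 30 of the other end was 1.21 (1.19 to 1.22) in endosperm and 1.22 (1.201 to 1.23) in leaf, a log2 difference of -0.01 (-0.04 to 0.02). Bins 6 to 10 of both ends were at 1.197 in endosperm and 1.23 in leaf (-0.04, -0.07 to -0.01). Farther in, bins 26 to 30 of both ends were at 1.04 in endosperm and 1.09 in leaf (-0.06, -0.09 to -0.02).

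**Figure D4:**
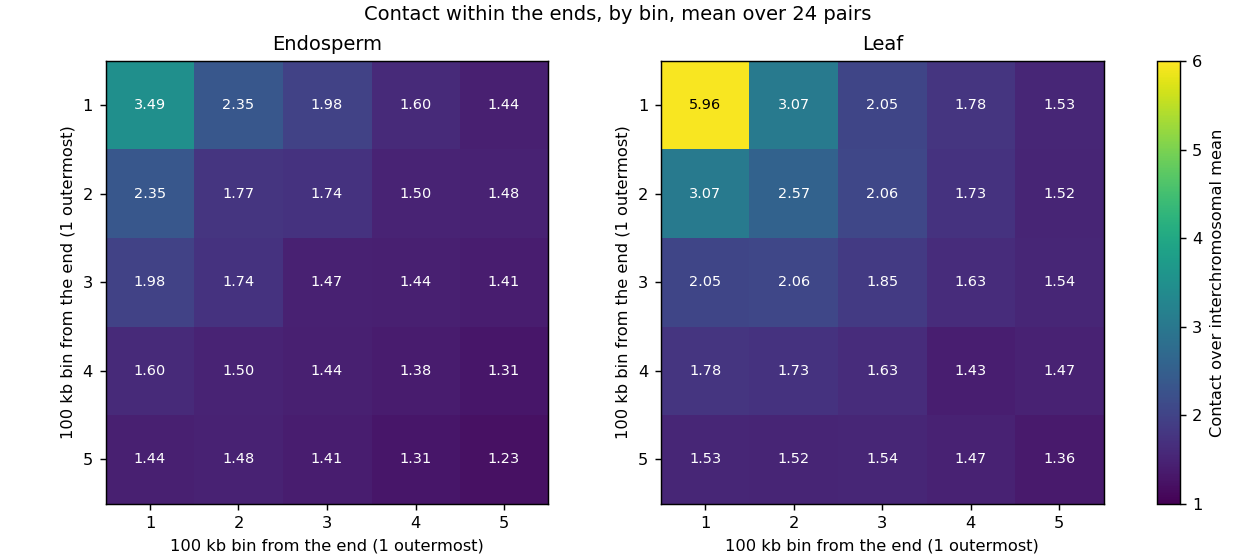
Mean contact over the interchromosomal mean for each combination of the 5 bins of 2 ends on different chromosomes, in endosperm (left) and leaf (right); bin 1 is the outermost. Contact dropped from the corner of both outermost bins, 3.49 in endosperm and 5.96 in leaf, to 1.23 and 1.36 at the corner of both bins 5.

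Every one of the 19 pairs of outermost bins was lower in endosperm, where 50.1% of all single pairs of bins between chromosomes were, and 16 of 19 were at least 1.2-fold lower, against 33.0%. Counts per pair were small, at 46 to 104 in endosperm and 46 to 125 in leaf. The interval lay below 0 in 13 of 19, and the share of such intervals over all single pairs of bins was not taken. The pairs ran from 2.33 to 4.59 in endosperm, with a median of 3.42, and from 4.28 to 8.60 in leaf, with a median of 5.99, so the ranges overlapped slightly. The highest in leaf was 2S with 3S, at 3.89 from 64 contacts in endosperm and 8.60 from 93 contacts in leaf.

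Among the outermost bins of single ends, 2S and 4S also had the largest and the smallest difference. These bins are part of the 5-bin ends above, so this is no separate observation. The tip of 2S contacted the other tips at 3.22 (2.902 to 3.54) in endosperm and 7.26 (6.68 to 7.83) in leaf, a log2 difference of -1.17 (-1.36 to -0.99), the largest of 7 tips. Next came 5N at 3.15 in endosperm and 6.43 in leaf (-1.03, -1.23 to -0.83). The smallest difference was at 4S, with 3.77 in endosperm and 5.08 in leaf (-0.43, -0.62 to -0.24). The other 4 tips had log2 differences between -0.80 and -0.56. Tips of one chromosome stood at 5.22 in endosperm and 8.35 in leaf on chromosome 3, and at 3.58 in endosperm and 6.72 in leaf on chromosome 5. Leaving out 2S, the other 6 tips stood at 3.62 in endosperm and 5.36 in leaf (-0.57, -0.70 to -0.43). Without balancing, the outermost bins gave 2.54 in endosperm and 4.16 in leaf (-0.71, -0.82 to -0.61). In the 200 kb matrices, where the outermost bin is wider, the log2 difference was -0.35.

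The 2 ends of one chromosome contacted each other more than ends of different chromosomes did. Mean contact over chromosomes 1, 3 and 5 was 2.02 (1.95 to 2.09) in endosperm and 2.39 (2.30 to 2.48) in leaf, a log2 difference of -0.24 (-0.31 to -0.17). Over ends of different chromosomes this was a log2 excess of 0.29 (0.24 to 0.35) in endosperm and 0.29 (0.23 to 0.35) in leaf. The difference of the excesses, 0.00 (-0.07 to 0.08), was not detectable at this depth. The ends of chromosome 1 lie on opposite sides of the break in the leaf map. Without chromosome 1 the excess was 0.29 (0.23 to 0.36) in endosperm and 0.35 (0.28 to 0.42) in leaf. The interval of their difference, -0.06 (-0.15 to 0.03), also held 0. Local background for the 3 pairs lies on the same chromosome. Over it the ratio was 1.52 (1.46 to 1.57) in endosperm and 1.79 (1.72 to 1.86) in leaf, and lower in endosperm for 3 of 3 chromosomes. The log2 difference in contact was -0.42 with ends of 3 bins, -0.15 with ends of 10 and -0.11 as a median over pairs of bins.

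Chromosome 3 had the highest value in both tissues, at 2.16 (2.04 to 2.28) in endosperm and 2.58 (2.43 to 2.74) in leaf, a log2 difference of -0.26 (-0.38 to -0.14). Chromosome 5 stood at 1.89 (1.78 to 2.01) in endosperm and 2.41 (2.26 to 2.56) in leaf, a difference of -0.35 (-0.48 to -0.23). On chromosome 1 the values were 2.02 (1.90 to 2.15) in endosperm and 2.13 (1.98 to 2.28) in leaf, with a difference of -0.08 (-0.21 to 0.06) whose interval holds 0. The ends of chromosome 1 lie on opposite sides of the break in the leaf map. Its background, the contact of each end with bins 6 to 30 of the other, was the one of these 3 that was higher in endosperm, at 1.36 in endosperm and 1.26 in leaf (0.11, 0.06 to 0.16).

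1S and 2S, which are the outer ends of the stretches joined in the leaf map, stood at 1.53 (1.42 to 1.63) in endosperm, from 759 contacts, and at 2.47 (2.31 to 2.64) in leaf, from 874 contacts. The log2 difference was -0.70 (-0.84 to -0.56), beyond that of any of the other 27 pairs. In endosperm the pair lay at the low edge of the pairs on different chromosomes (1.52 to 1.82), and in leaf it lay between the values of chromosomes 5 and 3 (2.41 and 2.58). Its local background differed more than that of the other 27 pairs, at 1.21 in endosperm and 1.45 in leaf, and over background the pair stood at 1.26 (1.17 to 1.36) in endosperm and 1.71 (1.59 to 1.83) in leaf. With ends of 10 bins the difference was -0.42. Because the junction is seen in the leaf map, tissue and junction cannot be told apart for this pair.

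Pairs of 2 north ends, of 2 south ends and mixed pairs differed little. On different chromosomes, north with north stood at 1.61 in endosperm and 1.94 in leaf, south with south at 1.63 and 1.94, and north with south at 1.68 and 1.98. Log2 differences were -0.26, -0.25 and -0.24.

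Against the nucleolus organizer ends of chromosomes 2 and 4 the 8 ends had lower balanced contact. Over 13 pairs of different chromosomes, with 1N and 2N left apart, it was 1.21 (1.19 to 1.24) in endosperm and 1.42 (1.39 to 1.45) in leaf. Relative to the 24 pairs without such an end this was a log2 difference of -0.44 (-0.48 to -0.41) in endosperm and -0.47 (-0.51 to -0.43) in leaf. Endosperm was lower than leaf in 13 of 13 of these pairs, with a log2 difference of -0.22 (-0.27 to -0.18) over all of them. It differed from that of the 24 pairs by 0.02 (-0.03 to 0.08). The pair 1N with 2N, whose chromosome arms are also joined in the leaf map, stood at 1.14 in endosperm and 1.49 in leaf (-0.38, -0.53 to -0.23). Of the 13 pairs, the 6 with 2N stood at 1.12 in endosperm and 1.30 in leaf, and the 7 with 4N at 1.30 and 1.52. Before balancing, the 13 pairs held 13573 contacts over 315 pairs of bins in endosperm, against 22340 over 575 for the 24 pairs. Per pair of bins this was not fewer in endosperm, whereas it was fewer in leaf, at 9238 against 19318. The organizer ends differed in this. The pairs with 4N held 5106 contacts over 170 pairs of bins in endosperm and 4332 in leaf. Per pair of bins this was fewer than in the 24 pairs in both tissues. Pairs with 2N held 8467 contacts over 145 pairs of bins in endosperm and 4906 in leaf, not fewer in either tissue. For 2N the lower contact thus holds for balanced values only, and the part of balancing was not tested.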

How the data were processed

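Contacts came from an in situ Hi-C protocol, and 4 matrices were used, at 100 kb and, as an alternative, at 200 kb. The authors deposited them as signal, balanced by iterative correction as the names state, with replicates 1 and 2 pooled. The submitters' processing notes name HiC-Pro 2.9.0, Bowtie2 and the build TAIR10. The sources used here do not give the enzyme, the read filters or the treatment of reads from repeats. Balancing removes differences in coverage between bins.

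At 100 kb the whole counts behind the balanced signal were recovered, since each value is a count divided by 1 factor per bin. All came out whole within 0.01, and they set the counting intervals (1.96 SDs of the weighted counts, 95%). Bins with values for 50% or more of the other bins in both tissues were used (1168), and differences are log2 of endosperm over leaf. Blocks of 5 by 5 bins laid over all chromosome pairs gave the shares over all features. The steps were tested on simulated data. Genes were named from a table of assembly TAIR10.1, used only for names and for the bin of each gene; those named are the outermost of each end. Pairs named are the 3 highest and lowest in endosperm, the 3 largest and smallest differences, ends of one chromosome and the joined pair. Members, lists and measures were chosen with earlier results of these data known. Python 3.11.15, numpy 2.4.6 and pandas 2.3.3 were used.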

Additional observations from a re-analysis of the deposited data

How the results depend on the processing

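No paired analysis was possible because the deposited matrices pool the replicates of each tissue, and for the same reason no replicate could be left out. The log2 differences stayed below 0 in 82 of 82 alternative values. Of these, 30 left the counting interval of the reported value and 11 equalled it because the setting removed or added no bin in use (all bins with signal, no bins of unusual counts, and the outermost bins without 1S). For contact between chromosomes (-0.25) they were -0.38 with 3 bins per end, -0.12 with 10, -0.20 without the outermost bin, -0.17 without the 2 outermost, -0.20 from counts without balancing, -0.20 with the expectation from totals, -0.17 at 200 kb, -0.15 as a median over bin pairs, -0.18 without chromosomes 1 and 2, -0.20 without the south end of chromosome 2 and -0.28 without that of chromosome 4. For contact over local background (-0.20) they were -0.34, -0.077, -0.15 and -0.11 for the first 4 of these, -0.12 at 200 kb, -0.10 as a median, -0.14 without chromosomes 1 and 2, -0.17 and -0.25 without the south ends of chromosomes 2 and 4, and -0.17 with background bins 6 to 15. For the ends of one chromosome (-0.24) they were -0.42 with 3 bins, -0.15 with 10 and -0.11 as a median. For the south ends of chromosomes 1 and 2 (-0.70) they were -0.42 with 10 bins and -0.85 without the 2 outermost. For the outermost bins (-0.77), a result added after the data were seen, they were -0.35 at 200 kb, where that bin is wider, -0.59 without chromosomes 1 and 2, and -0.57 and -0.92 without the south ends of chromosomes 2 and 4. Pairs lower in endosperm numbered 7 of 8 without chromosomes 1 and 2, and 17 of 24 by medians. Ends without their 2 outermost bins were also chosen after the data were seen. The log2 differences were smaller with more bins per end. They also shrank with distance from the end, though not at every step. The causes of the changes between settings were not tested. Differences of single bin pairs, with 46 to 125 contacts, are limited by depth.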
